A study of Mus musculus with 10 samples.

Results

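The cytochrome P450 genes of families 1 to 3 encode the haem enzymes that start the oxidation of drugs, environmental chemicals, steroids and fatty acids. The members were all protein-coding genes of the deposited table whose name is Cyp followed by family 1, 2 or 3, a single subfamily letter and a number. This rule gave 58 of the 54532 genes, of which 35 had enough reads to be compared between genotypes, 16 had some reads but too few, and 7 (Cyp2b23, Cyp2c66, Cyp2j7, Cyp2j11, Cyp2j12, Cyp2j13 and Cyp2w1) had no read in any liver. Names with a further letter, such as Cyp3a41a, fell outside the rule, as did pseudogenes.

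Livers came from 10 mice on a C57BL/6J background, 5 labelled ASK1f/f and 5 labelled ASK1+hep, which were put on a HFD at 6 weeks of age, killed after 7 weeks of it and fasted for 5 h beforehand. ASK1, a stress-activated MAP3 kinase, is encoded by Map3k5. Both genotypes carry murine ASK1 cDNA in the ROSA26 locus behind a lox-stop-lox cassette, and in ASK1+hep mice Alb-Cre, a recombinase driven by the albumin promoter, removes the stop. ASK1f/f mice are the control littermates, so the comparison asks how switching on the ASK1 cDNA in hepatocytes relates to hepatic expression on a HFD. Expression was measured by bulk RNA sequencing of polyadenylated RNA and is given as FPKM, a read number per length of transcript that also allows for the depth of the library. Libraries held 13367742 to 16163378 reads on genes, and the members took 1.61 to 2.17% of them.

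P450 enzymes of the endoplasmic reticulum take electrons from P450 reductase (Por), insert an oxygen atom into a lipophilic substrate and so prepare it for conjugation and excretion. Most are made in hepatocytes, many of them mainly around the central vein, and several are induced by the ligand-activated receptors AHR, CAR (Nr1i3) and PXR (Nr1i2). In mice the families have expanded by tandem duplication, so that neighbouring genes encode similar enzymes with different substrates.

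Before the members, 3 properties of the libraries bear on the values below. Map3k5 was at 6.74, 6.88, 5.77, 4.71 and 19.8 FPKM in ASK1f/f replicates 1 to 5 against 16.4, 11.1, 7.68, 12.4 and 15.2 FPKM in ASK1+hep replicates 1 to 5, so the library labelled ASK1f/f replicate 5 had the highest value of the 10, against its label. Fgf21 went with the labels: that library was at 3.21 FPKM, within the ASK1f/f range of 2.46 to 4.74 FPKM and below all ASK1+hep livers (7.40 to 30.1 FPKM). ASK1+hep replicate 3 stood apart, with a median correlation to the other livers of 0.961 against 0.981 to 0.985 for the rest. The acute phase transcript Saa1 was at 1557 and 904 FPKM in ASK1f/f replicates 2 and 5 and at 14.8 to 116 FPKM in the other 8 livers. The hepatocyte markers were high in every liver (summed level of 6 genes 29828 to 44735 FPKM) and Xist was at or under 0.0129 FPKM in every liver, so tissue and a shared male sex matched the description.

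Sequences just upstream of the gene starts are shown for the members with the highest log2 fold change on chromosomes 19 and 5 (Cyp2c38 and Cyp3a11) and for the genes on either side of Cyp2c38, Cyp2c39 with the same sign and Cyp2c29 with the opposite sign. They come from RefSeq on GRCm38.p6 and run 5′ to 3′ on the gene's strand. Bases at the 3′ end that an annotated protein-coding transcript of the same gene counts as exon were left out. Cyp2c29 (chr19:39286835-39287073, plus strand), Cyp2c38 (chr19:39463076-39463325, minus strand) and Cyp2c39 (chr19:39510572-39510821, plus strand) lie side by side, and capitals mark the 4 runs of at least 10 bases that are present in all 3 windows.
Cyp2c29: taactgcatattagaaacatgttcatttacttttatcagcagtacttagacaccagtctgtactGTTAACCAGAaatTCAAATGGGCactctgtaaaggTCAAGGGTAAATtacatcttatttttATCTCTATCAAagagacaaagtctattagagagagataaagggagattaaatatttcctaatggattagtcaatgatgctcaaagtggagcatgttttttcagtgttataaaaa
Cyp2c38: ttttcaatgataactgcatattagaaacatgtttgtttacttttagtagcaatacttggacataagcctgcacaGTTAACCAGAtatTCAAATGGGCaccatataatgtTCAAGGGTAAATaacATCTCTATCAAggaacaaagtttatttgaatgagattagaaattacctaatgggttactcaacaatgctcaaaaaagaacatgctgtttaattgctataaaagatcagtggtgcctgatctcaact
Cyp2c39: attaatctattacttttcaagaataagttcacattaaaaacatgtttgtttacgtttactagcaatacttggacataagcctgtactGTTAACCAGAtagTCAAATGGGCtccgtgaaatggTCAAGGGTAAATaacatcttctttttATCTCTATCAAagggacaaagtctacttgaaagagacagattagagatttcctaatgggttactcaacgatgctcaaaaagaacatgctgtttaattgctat
The 3 windows shared the runs GTTAACCAGA, TCAAATGGGC, TCAAGGGTAAAT and ATCTCTATCAA in the same order, 43 bases in all, and aligned with 66.2 to 71.0% identity. The Cyp2c29 start used here lies 17680 bases inside the gene as the deposited table bounds it, and the Cyp2c39 start lies 40 bases from that table's.
Cyp3a11 (chr5:145879965-145880104, minus strand) is shown with the letters of a nuclear receptor half-site, AGGTCA or AGTTCA on either strand, in capitals.
Cyp3a11: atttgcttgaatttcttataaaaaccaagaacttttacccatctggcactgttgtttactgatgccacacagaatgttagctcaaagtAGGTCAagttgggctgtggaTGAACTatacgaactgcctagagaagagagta
This window held 2 half-sites, those of Cyp2c29 and Cyp2c39 held 1 each, and that of Cyp2c38 held 0. The Cyp3a11 window has 140 bases, since 110 were left out as exon. That of Cyp2c29 has 239 bases and those of Cyp2c38 and Cyp2c39 have 250, so these counts are not over equal lengths. Over all 32851 RefSeq windows of 250 bases before a start, 24.2% held such a half-site, 28.2% the AHR core GCGTG on either strand and 7.59% TATAAA on the gene's strand. Of the 53 windows of the 50 members with an entry, 21 (39.6%) held a half-site, 9 the AHR core and 17 (32.1%) TATAAA. A match of letters is a description and not a site of binding.

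No member was called different between genotypes once p-values were adjusted over all genes compared. With limma on log2(FPKM + 1) and Benjamini-Hochberg adjustment, 0 of the 35 members had an adjusted p at or below 0.05, as did 0 of all 13306 genes (0%), and the lowest adjusted p of a member was 0.712. limma-voom on the reads recovered from the FPKM also called 0 members. The study, whose methods name DESeq2 with the same threshold, reported strong upregulation of Fgf21 in ASK1+hep livers. Here Fgf21 had a limma p of 3.82e-05 but an adjusted p of 0.355. The lack of adjusted calls therefore does not show that no gene differs. At an unadjusted p under 0.05, there were 10 of the 35 members (28.6%) against 768 of all 13306 genes (5.77%). Of these, 5 were higher in ASK1+hep livers (Cyp2c38, Cyp2c39, Cyp3a11, Cyp2u1 and Cyp2j9; 14.3% of the members against 3.05% of all genes) and 5 were lower (Cyp2j6, Cyp2c70, Cyp2j5, Cyp2s1 and Cyp2f2; 14.3% against 2.72%). The members were not shifted in 1 direction, since 16 were higher and 19 lower by sign, and their median log2 fold change was -0.034 against -0.0065 over all genes. Their median absolute log2 fold change was 0.23 against 0.10 over all genes. Among genes with a mean of at least 10 FPKM, where log2(FPKM + 1) changes little with the added 1, it was 0.27 for 24 members against 0.15 for 3257 genes, and 6 of these members against 6.75% of these genes had an unadjusted p under 0.05. Members of a subfamily share sequence, regulators and neighbourhood, so these counts are not counts of independent genes. In bulk liver RNA, fewer cells of a type and less RNA per cell cannot be told apart.

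**Figure D1:**
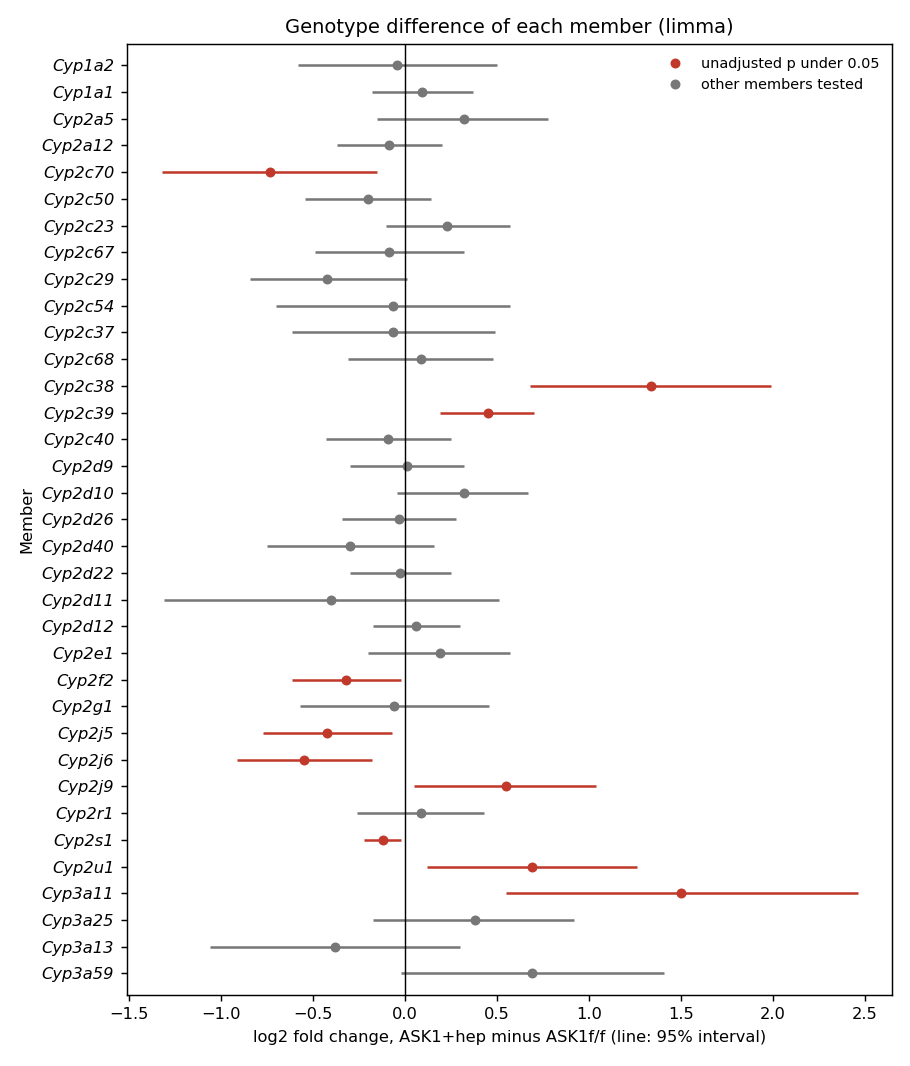
Difference between genotypes for the 35 members compared, as log2 fold change of FPKM + 1 on the x axis (positive: higher in ASK1+hep), with 95% confidence intervals as lines and members grouped by subfamily on the y axis. Cyp3a11 (1.50) and Cyp2c38 (1.34) lie farthest to the right, Cyp2c70 (-0.73) farthest to the left, and members in red had an unadjusted p under 0.05, although no adjusted p was below 0.712.

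The level of the members spanned over several orders of magnitude, and the order was led by the same few enzymes in both genotypes. Cyp2e1, which oxidises ethanol, acetaminophen and ketone bodies, had the highest mean over the 10 livers at 3411 FPKM and made up 37.3 to 44.0% of the summed FPKM of all members in each liver. It was followed by Cyp2d9 (728 FPKM), Cyp2d10 (606), Cyp2d26 (582), Cyp2f2 (499), Cyp2a5 (430.1), Cyp1a2 (239.6), Cyp3a11 (222), Cyp2a12 (207) and Cyp2j5 (193). Neighbours in this order differed by less than the spread between livers in most cases. Cyp2d10 ranged from 435 to 866 FPKM and Cyp2d26 from 459 to 681. Some transcripts also share sequence with other genes, which limits their values as values of single genes. Of all runs of 50 bases, those found in another gene made up 40.8% for Cyp2a5, 40.5% for Cyp2d10, 29.0% for Cyp2d9 and 27.5% for Cyp2a12. By subfamily, Cyp2e made up 40.6% of the members' FPKM, Cyp2d 24.5%, Cyp2c 10.3%, Cyp2a 7.58%, Cyp2f 5.93%, Cyp3a 5.55%, Cyp1a 2.85% and Cyp2j 2.53%. The summed FPKM of all members had a mean of 8136 ± 908 (SD, n = 5) for the ASK1f/f group and of 8684 ± 272 (SD, n = 5) for the ASK1+hep group.

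**Figure D2:**
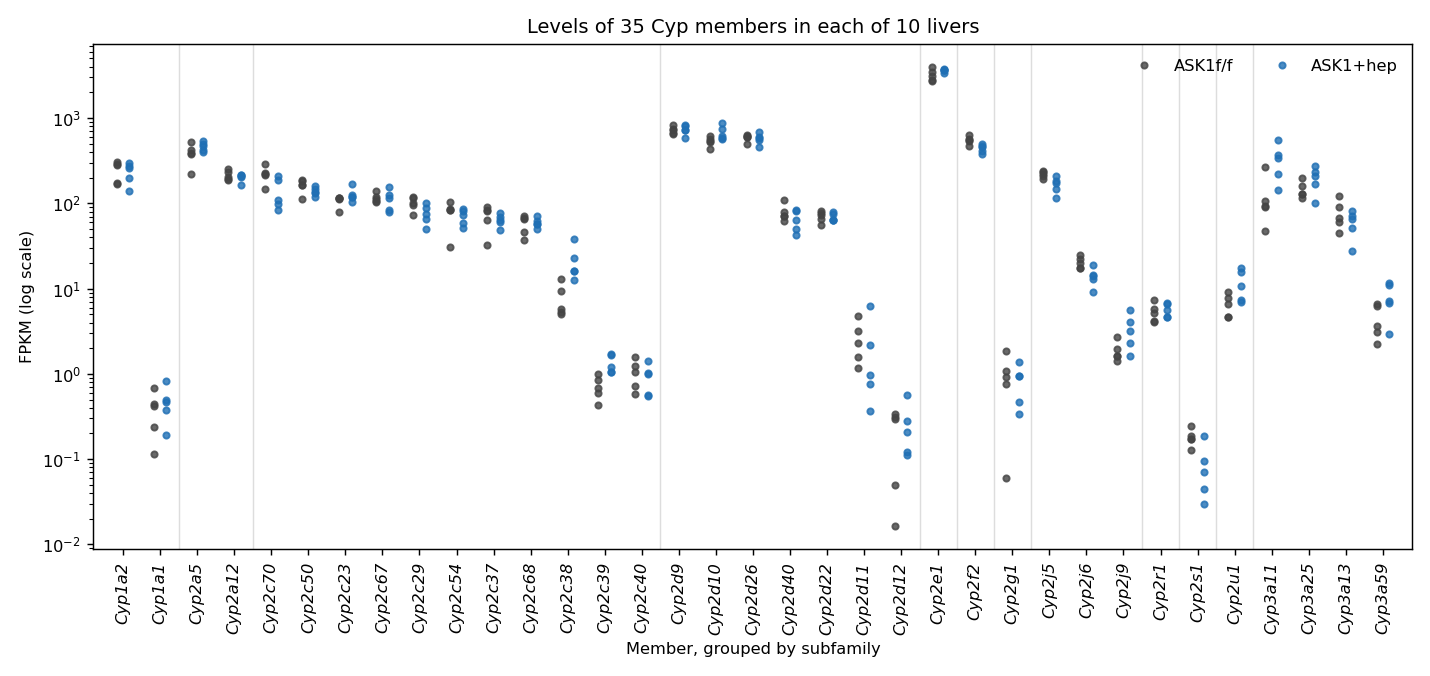
FPKM of the 35 members compared in each liver, on a log axis, grouped by subfamily, with ASK1f/f livers in grey and ASK1+hep livers in blue. Each point is 1 liver; Cyp2e1 lies highest at 2749 to 3978 FPKM and Cyp2s1 is among the lowest at 0.0294 to 0.244 FPKM.

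Within the Cyp2c genes of chromosome 19, whose enzymes act on retinoic acid, arachidonic acid and bile acids besides drugs, Cyp2c38 and Cyp2c39 were higher and Cyp2c70 lower in ASK1+hep livers at an unadjusted p under 0.05. Of the 15 members, 11 were compared, 4 of them higher and 7 lower by sign, and their summed FPKM was 921 ± 173 (SD, n = 5) in ASK1f/f and 810.0 ± 85.7 (SD, n = 5) in ASK1+hep livers. Cyp2c38 (ENSMUSG00000032808, minus strand, 39389556 to 39463075), an enzyme that oxidises arachidonic acid, was at 5.70, 9.36, 5.01, 5.36 and 12.8 FPKM in ASK1f/f replicates 1 to 5 against 16.2, 22.6, 38.3, 16.2 and 12.7 FPKM in ASK1+hep replicates 1 to 5. All ASK1+hep livers but replicate 5 lay above all ASK1f/f livers, and that replicate lay just under ASK1f/f replicate 5. The means were 7.64 ± 3.36 and 21.2 ± 10.2 FPKM (SD, n = 5 each), a ratio of 2.77 and a log2 fold change of 1.34 (SE 0.30, limma p = 0.000880, adjusted p = 0.712, exact two-sided permutation p = 0.0159). Cyp2c38 had the lowest p of all members. Its log2 fold change was 1.10 when ASK1+hep replicate 3, whose value was the highest, was left out, and 1.52 when ASK1f/f replicate 5 was.

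The next gene, Cyp2c39, a retinoic acid hydroxylase, was the 1 member of 35 (2.86%) whose genotype groups did not overlap, against 115 of all 13306 genes (0.864%), of which 0.398% of all genes were higher and 0.466% lower in ASK1+hep livers. Its FPKM was 0.429, 1.01, 0.589, 0.687 and 0.858 in ASK1f/f replicates 1 to 5 against 1.68, 1.06, 1.72, 1.19 and 1.04 in ASK1+hep replicates 1 to 5. These are low values that rest on 13 to 52 reads per liver, and the gap between the groups, from 1.01 to 1.04 FPKM, was small. The log2 fold change was 0.45 (SE 0.12, limma p = 0.00268, adjusted p = 0.712), and the exact permutation p of 0.00794 is the smallest that 5 against 5 livers can give. Cyp2c38 and Cyp2c39 are 94.2% identical in their coding sequence. Of all runs of 50 bases in their transcripts, 7.45% of those of Cyp2c38 and 12.0% of those of Cyp2c39 occur in another gene, mostly in each other, so some of their reads could be assigned to either gene.

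Cyp2c29, which in the liver is known as a target of CAR, lies on the other side of Cyp2c38 and was lower in most ASK1+hep livers. It was at 119, 101, 94.6, 115 and 72.2 FPKM in ASK1f/f replicates 1 to 5 against 50.4, 75.7, 65.6, 99.6 and 87.3 FPKM in ASK1+hep replicates 1 to 5, with overlapping groups. Its limma log2 fold change was -0.42 (SE 0.19, p = 0.0526, adjusted p = 0.812, exact permutation p = 0.0873). Its coding sequence is 89.1% identical to that of Cyp2c38. The 4 runs printed above were picked as present in all 3 windows, so their presence in its upstream window is no separate result. The log2 fold change of Cyp2c29 was -0.28 (unadjusted p = 0.137) without ASK1+hep replicate 1 and -0.22 (unadjusted p = 0.271) within the livers whose animal tag starts with CC. Only 2.08% of its runs of 50 bases occur in another gene.

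Cyp2c70, farther along the cluster, is the mouse enzyme that makes muricholic acids from chenodeoxycholic acid. It was at 218, 217, 228, 289.9 and 148 FPKM in ASK1f/f replicates 1 to 5 against 211, 84.2, 98.8, 188 and 109 FPKM in ASK1+hep replicates 1 to 5. The groups overlapped, with ASK1f/f replicate 5 below ASK1+hep replicates 1 and 4. The means were 220.1 ± 50.5 and 138 ± 57.3 FPKM (SD, n = 5 each), and the log2 fold change was -0.73 (SE 0.27, limma p = 0.0186, adjusted p = 0.812, exact permutation p = 0.0476). Its sequence is set apart from the rest of the cluster, since 0% of its runs of 50 bases occur in another gene. Without ASK1+hep replicate 2 the log2 fold change was -0.58 and the unadjusted p 0.0519. The other 7 Cyp2c members compared (Cyp2c23, Cyp2c37, Cyp2c40, Cyp2c50, Cyp2c54, Cyp2c67 and Cyp2c68) had log2 fold changes from -0.20 to 0.23, with unadjusted p from 0.157 to 0.826. Of these, Cyp2c40 shared 72.1% and Cyp2c67 52.8% of its runs of 50 bases with other genes, so that their values are uncertain as values of single genes.

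**Figure D3:**
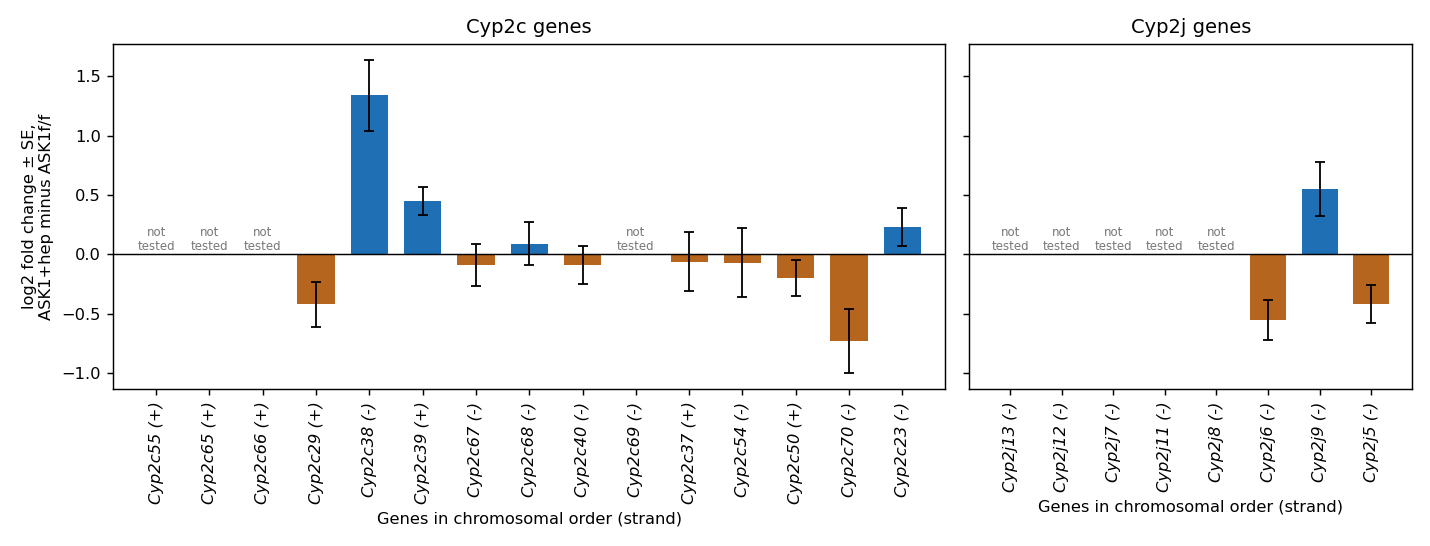
Log2 fold change (bars, with SE as error bars; y axis, positive: higher in ASK1+hep) of the Cyp2c genes on chromosome 19 and the Cyp2j genes on chromosome 4, each in chromosomal order along the x axis with the strand in parentheses. Bars of opposite sign stand side by side: Cyp2c29 (-0.42) beside Cyp2c38 (1.34), and Cyp2j9 (0.55) between Cyp2j6 (-0.55) and Cyp2j5 (-0.42); genes without a bar had too few reads.

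The Cyp2j subfamily, whose best known members turn arachidonic acid into epoxyeicosatrienoic acids, had members of both signs among 3 adjoining genes of chromosome 4. All 8 members lie on the minus strand, 4 of them had no read, and 3 were compared. Their summed FPKM, mostly from Cyp2j5, was 242 ± 21.2 (SD, n = 5) in ASK1f/f and 184 ± 38.5 (SD, n = 5) in ASK1+hep livers. Cyp2j6 (96516138 to 96553661) was at 17.4, 19.8, 22.5, 24.7 and 17.6 FPKM in ASK1f/f replicates 1 to 5 against 13.9, 13.0, 9.24, 14.5 and 18.7 FPKM in ASK1+hep replicates 1 to 5. Of the ASK1+hep livers, replicate 5 alone reached the ASK1f/f range. The log2 fold change was -0.55 (SE 0.17, limma p = 0.00653, adjusted p = 0.810, exact permutation p = 0.0238), and it was -0.42 without ASK1+hep replicate 3, which had the lowest value.

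Cyp2j5, an arachidonic acid epoxygenase of liver and kidney, was at 192, 219, 234, 239.7 and 212 FPKM in ASK1f/f replicates 1 to 5 against 183, 146, 117, 175 and 211 FPKM in ASK1+hep replicates 1 to 5. Again ASK1+hep replicate 5 alone lay within the ASK1f/f range. The log2 fold change was -0.42 (SE 0.16, limma p = 0.0218, adjusted p = 0.812, exact permutation p = 0.0159), and its unadjusted p was 0.0519 when ASK1f/f replicate 4 was left out and 0.051 when ASK1+hep replicate 2 was. Cyp2j9 (96568429 to 96591578), which lies between them, was at 2.69, 1.96, 1.62, 1.42 and 1.64 FPKM in ASK1f/f replicates 1 to 5 against 1.60, 5.68, 4.02, 2.33 and 3.15 FPKM in ASK1+hep replicates 1 to 5. It was thus much lower in level than Cyp2j5 and higher in 3 ASK1+hep livers than in any ASK1f/f liver, with a log2 fold change of 0.55 (SE 0.23, limma p = 0.0331, adjusted p = 0.812, exact permutation p = 0.0873). Its unadjusted p was 0.0527 to 0.0820 without single livers (ASK1f/f replicate 3, 4 or 5, or ASK1+hep replicate 2, 3 or 5), with a log2 fold change of 0.37 without ASK1+hep replicate 2. The 3 coding sequences are 78.8 to 82.8% identical, and at most 0.422% of their runs of 50 bases occur in another gene, so reads of 1 gene were hardly assignable to another.

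Among the 7 Cyp3a members on chromosome 5, Cyp3a11 carried the difference in summed FPKM, which was 348 ± 112 (SD, n = 5) in ASK1f/f and 586 ± 218 (SD, n = 5) in ASK1+hep livers. Cyp3a11 (ENSMUSG00000056035, minus strand, 145854426 to 145879964), the main steroid and drug oxidising Cyp3a enzyme of mouse liver and a standard readout of PXR, was at 47.2, 106, 93.5, 90.3 and 266 FPKM in ASK1f/f replicates 1 to 5. It was at 144, 368, 220.0, 336 and 546 FPKM in ASK1+hep replicates 1 to 5. All ASK1+hep livers lay above ASK1f/f replicates 1 to 4, whereas ASK1f/f replicate 5 lay above ASK1+hep replicates 1 and 3. Each ASK1+hep liver also lay above the ASK1f/f liver of the same number, but no source says what a shared number marks. The means were 121 ± 84.4 and 323 ± 154 FPKM (SD, n = 5 each), a ratio of 2.67 and a log2 fold change of 1.50 (SE 0.44, limma p = 0.00500, adjusted p = 0.804, exact permutation p = 0.0238). Cyp3a11 also varied within genotypes more than any other of the 10 most abundant members, and it ranged 11.6-fold over the 10 livers.

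ASK1f/f replicate 5, the control liver with the highest Cyp3a11 and Cyp2c38, was also the liver with the highest Map3k5 (19.8 FPKM) and had high acute phase transcripts. Within the ASK1f/f group it had the lowest value of 9 of the 11 Cyp2c members compared, all but Cyp2c38 and Cyp2c39, and of Cyp2f2. Without it, the log2 fold change of Cyp3a11 was 1.85 (unadjusted p = 0.000426, adjusted p = 0.283). Without both ASK1f/f livers with high acute phase transcripts, it was 1.98 (adjusted p = 0.371), and that of Cyp2c38 was 1.70 (adjusted p = 0.289). All 10 acute phase markers were lower by sign in ASK1+hep livers (52.0% of all genes were), 2 of them at an unadjusted p under 0.05 (2.72% of all genes). Their summed level was 3695 to 13736 FPKM in the ASK1f/f group against 3519 to 5736 FPKM in the ASK1+hep group. By group median, Fgb (854 FPKM in ASK1f/f, 988 FPKM in ASK1+hep), Saa2, Saa3, Apcs and Orm2 were instead higher in ASK1+hep livers. The medians of Hp, Orm1, Itih4, Saa1 and Lcn2 were lower. The part of these markers in the differences of the members was not tested beyond the values given without the 2 livers.

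Of the other 6 Cyp3a members, 3 were compared. Cyp3a25 was at 146 ± 33.2 and 196 ± 64.6 FPKM (SD, n = 5 each; log2 fold change 0.38, SE 0.25, limma adjusted p = 0.812), and its near copy Cyp3a59 was at 4.38 ± 1.96 and 7.90 ± 3.52 FPKM (log2 fold change 0.69, SE 0.33, limma p = 0.0564, adjusted p = 0.812, exact permutation p = 0.119). These genes are 97.5% identical in their coding sequence and 26.8% and 28.0% of their runs of 50 bases occur in other genes, mostly in each other, so their reads were not fully separable. Without ASK1+hep replicate 3, the liver that stood apart and had the lowest value of both within its genotype, the log2 fold change was 0.59 (unadjusted p = 0.00770, adjusted p = 0.840) for Cyp3a25 and 0.96 (unadjusted p = 0.00399, adjusted p = 0.792) for Cyp3a59. Cyp3a13 lies apart from the other Cyp3a genes and was at 77.1 ± 30.3 and 59.1 ± 20.6 FPKM, with a log2 fold change of -0.38 (SE 0.31, adjusted p = 0.817). After subtraction of the genotype means, Cyp3a13 was nevertheless the member whose values over the 10 livers were most like those of Cyp3a11 (Pearson r = 0.66, Spearman rho = 0.78, r = 0.60 without the 2 farthest livers). Cyp2d11 (r = 0.36) and Cyp3a25 (r = 0.35) followed, with r = 0.02 and r = 0.33 without the 2 farthest livers. Cyp3a16, Cyp3a44 and Cyp3a57 had at most 8 reads in any liver. Of the runs of 50 bases of Cyp3a11, 14.8% occur in other genes, with Cyp3a41a holding more of them (6.32%) than any other single gene.

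**Figure D4:**
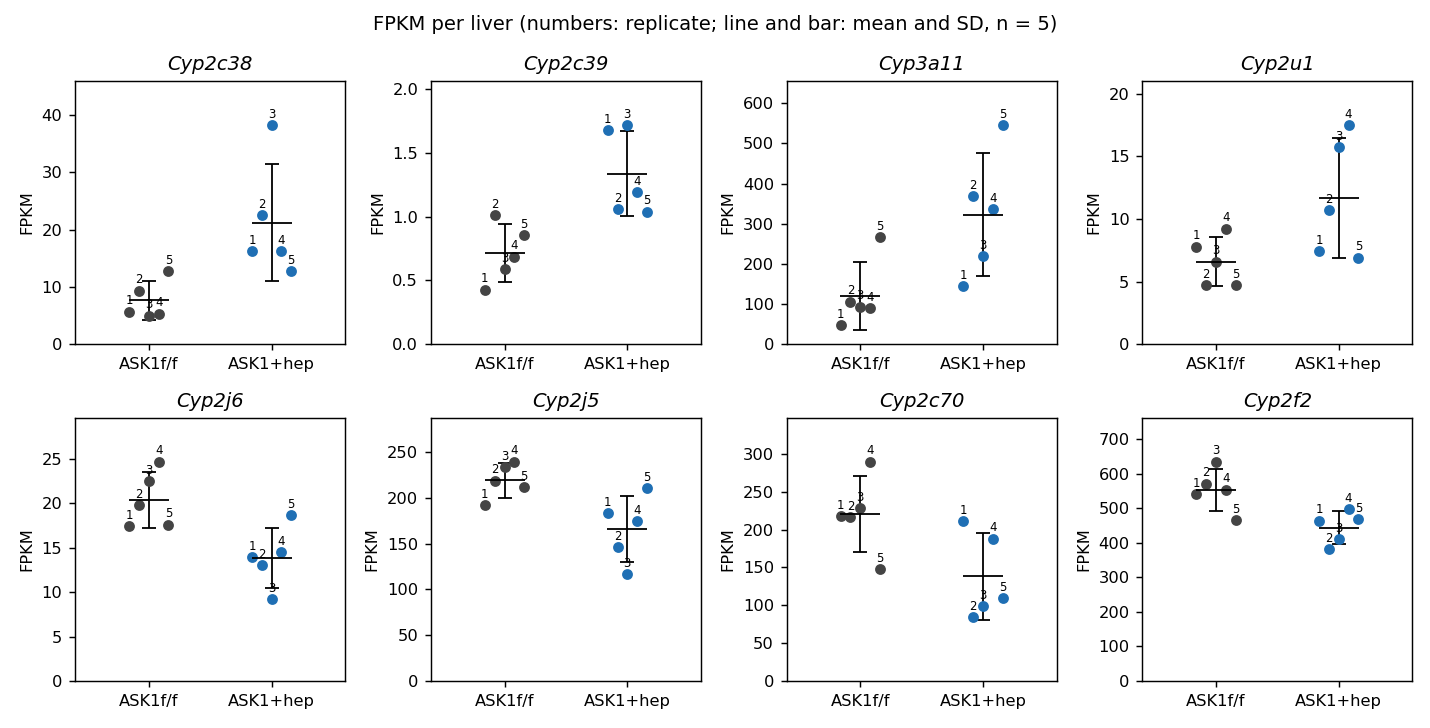
FPKM in each liver (y axes, starting at 0) for 8 members with an unadjusted p under 0.05, 4 higher (top) and 4 lower (bottom) in ASK1+hep, with the replicate number beside each point and the mean ± SD (n = 5) in black. In every panel but that of Cyp2c39, livers of both genotypes fall within the range of the other genotype. Examples are ASK1f/f replicate 5 for Cyp3a11 (266 FPKM) and ASK1+hep replicate 5 for Cyp2j5 (211 FPKM). Cyp2c39 has no overlap.

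The most abundant member overlapped fully between genotypes. Cyp2e1 was at 3466, 2762, 3978, 3088 and 2749 FPKM in ASK1f/f replicates 1 to 5 against 3681, 3379.8, 3739, 3615 and 3654 FPKM in ASK1+hep replicates 1 to 5. The ASK1+hep values lay within the ASK1f/f range, with an SD of 138 FPKM against 521 FPKM, and the log2 fold change was 0.19 (95% interval -0.20 to 0.57, adjusted p = 0.835). After subtraction of the genotype means, the members most like Cyp2e1 over the 10 livers were Cyp2g1 (Pearson r = 0.69), Cyp2c68 (0.68), Cyp2c37 (0.62), Cyp2d22 (0.62) and Cyp2d12 (0.62), but without the 2 farthest livers r was 0.15, 0.55, 0.16, 0.19 and 0.59. Cyp2e1 is a pericentral gene, and 7 of the 8 pericentral hepatocyte markers were higher by sign in ASK1+hep livers, against 48.0% of all genes. The summed level of these markers, mostly from Glul and Oat, was 764 to 1038 FPKM in ASK1+hep and 646 to 759 FPKM in ASK1f/f livers. Glul did not overlap between the groups (249.7 to 328 against 348 to 485 FPKM, log2 fold change 0.42, limma adjusted p = 0.812), as held for 0.864% of all genes. The smallest log2 fold changes among the markers were those of Tbx3 (0.15), Lgr5 (0.019) and Axin2 (-0.047). The part of zonation in the members' values was not tested.

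Cyp2f2, a periportal enzyme that activates naphthalene, was at 540.3, 571, 635, 554 and 466 FPKM in ASK1f/f replicates 1 to 5 against 464, 382, 409.6, 497 and 468 FPKM in ASK1+hep replicates 1 to 5. ASK1f/f replicate 5 lay among the ASK1+hep livers, and the other 4 ASK1f/f livers lay above all of them. The groups differed by a log2 fold change of -0.32 (SE 0.13, limma p = 0.0379, adjusted p = 0.812, exact permutation p = 0.0238), and leaving out single livers took its unadjusted p to between 0.0609 and 0.0968 for ASK1f/f replicates 1 to 4 and ASK1+hep replicate 2. The 6 periportal markers were divided evenly by sign, and their summed level was 1731 to 2391 FPKM in the ASK1f/f group against 1681 to 2650.3 FPKM in the ASK1+hep group. An annotated gene on the opposite strand, Gm15883, overlaps Cyp2f2, and its reads could not be told apart from those of Cyp2f2 because the strand setting of the counting is not given in the sources used here.

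The Cyp2d genes of chromosome 15, the mouse relatives of the human debrisoquine hydroxylase, summed to 2001 ± 155 FPKM (SD, n = 5) in the ASK1f/f group, while the sum was 2118 ± 287 FPKM (SD, n = 5) in the ASK1+hep group. Of 8 members 7 were compared, 3 higher and 4 lower by sign, with none at an unadjusted p under 0.05. Cyp2d9, a testosterone hydroxylase typical of male liver, was at 725 ± 74.1 and 732 ± 89.5 FPKM, and the 95% interval of its log2 fold change ran from -0.30 to 0.32. The lowest p was that of Cyp2d10, at 537 ± 65.7 and 674 ± 128 FPKM (log2 fold change 0.32, SE 0.16, limma p = 0.0756, adjusted p = 0.812, exact permutation p = 0.0556), of whose runs of 50 bases 40.5% occur in other genes. Cyp2d11 had a 17.2-fold range, from 0.365 FPKM in ASK1+hep replicate 3 to 6.28 FPKM in ASK1+hep replicate 2, and its log2 fold change of -0.40 (adjusted p = 0.842) was -0.78 (unadjusted p = 0.0291) without ASK1+hep replicate 2.

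In the Cyp2a genes of chromosome 7, Cyp2a5, the coumarin hydroxylase, was at 530.3, 220.3, 425, 381 and 393 FPKM in ASK1f/f replicates 1 to 5 against 476, 426, 405, 502 and 542 FPKM in ASK1+hep replicates 1 to 5. The lowest value belonged to ASK1f/f replicate 2, 1 of the livers with high acute phase transcripts. The difference was a log2 fold change of 0.32 (SE 0.21, adjusted p = 0.812), and it was 0.12 without that liver. Its relative Cyp2a12 was at 214 ± 26.8 and 201 ± 21.7 FPKM (SD, n = 5 each), and Cyp2a4 and Cyp2a22 stayed under 1 FPKM in every liver. Cyp2a5 shares sequence mostly with Cyp2a4, and Cyp2a12 with Cyp2a22, so reads of these pairs were not fully separable.

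Of the genes that AHR is known to induce, Cyp1a2, which metabolises caffeine, was at 305, 172, 285, 286 and 167 FPKM in ASK1f/f replicates 1 to 5 against 198, 301, 141, 277 and 263 FPKM in ASK1+hep replicates 1 to 5, with a log2 fold change of -0.042 (95% interval -0.58 to 0.50, adjusted p = 0.974). ASK1f/f replicates 2 and 5, those with high acute phase transcripts, had the lowest values of their genotype, and without both the log2 fold change was -0.36 (adjusted p = 0.946). Cyp1a1, which AHR ligands induce strongly, ranged from 0.114 to 0.834 FPKM and Cyp1b1 from 0.0521 to 0.283 FPKM. Cyp2b10, the classical CAR target, ranged from 0.0833 to 0.560 FPKM on 3 to 18 reads and was too low to be compared. None of the 5 Cyp2b members was compared. Cyp2b9, which is typical of female liver, reached 3.74 FPKM in ASK1f/f replicate 3 and 1.51 FPKM in ASK1+hep replicate 3 and was at or under 0.433 FPKM in the other 8 livers. Cyp2b13 and Cyp3a44, also typical of female liver, had at most 2 reads and 1 read in any liver.

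Of the members that stand alone in their subfamily, Cyp2u1, a fatty acid hydroxylase, was at 7.78, 4.70, 6.59, 9.22 and 4.69 FPKM in ASK1f/f replicates 1 to 5 against 7.45, 10.7, 15.7, 17.5 and 6.91 FPKM in ASK1+hep replicates 1 to 5. ASK1+hep replicates 2, 3 and 4 lay above all ASK1f/f livers. This was a log2 fold change of 0.69 (SE 0.26, limma p = 0.0212, adjusted p = 0.812, exact permutation p = 0.0556), 0.53 to 0.60 (unadjusted p 0.0516 to 0.0573) without ASK1f/f replicate 2 or 5 or ASK1+hep replicate 3 or 4, and 0.44 (unadjusted p = 0.159) without both ASK1f/f livers with high acute phase transcripts. Cyp2s1 was at 0.0294 to 0.244 FPKM on 2 to 18 reads, with a log2 fold change of -0.12 (SE 0.048, limma p = 0.0260, adjusted p = 0.812, exact permutation p = 0.0397), a scale on which changes of such low values are understated. Its unadjusted p was 0.0501 to 0.0663 without ASK1f/f replicate 3 or ASK1+hep replicate 1, 3 or 5. Both genes are overlapped by annotated genes on the opposite strand. Cyp2r1, which hydroxylates vitamin D, was at 5.32 ± 1.37 and 5.65 ± 0.998 FPKM (SD, n = 5 each), with a log2 fold change of 0.086 (95% interval -0.26 to 0.43). Cyp2g1, best known from olfactory mucosa, ranged from 0.0606 to 1.87 FPKM with a log2 fold change of -0.056 (95% interval -0.57 to 0.46), and Cyp2t4 was too low to be compared.

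The list chosen for comparison held 33 genes: regulators and partners of these enzymes and further targets of such regulators, such as Ces2a and Abcc3. Of these, 30 had enough reads, and 13 were higher and 17 lower by sign. Only 1 (3.33%) had an unadjusted p under 0.05, against 5.77% of all genes. This was Nr0b2, which encodes SHP, a corepressor of nuclear receptors that bile acid signalling induces. Nr0b2 was at 14.4, 19.8, 11.5, 17.3 and 32.5 FPKM in ASK1f/f replicates 1 to 5 against 27.3, 30.5, 56.6, 51.1 and 38.4 FPKM in ASK1+hep replicates 1 to 5. As for Cyp3a11 and Cyp2c38, the highest ASK1f/f value belonged to replicate 5, and the log2 fold change was 1.08 (SE 0.27, limma p = 0.00177, adjusted p = 0.712, exact permutation p = 0.0238). Among the xenobiotic receptors, the log2 fold change was -0.020 for Nr1i2 (PXR; 40.4 ± 7.02 and 40.0 ± 7.90 FPKM) with an adjusted p of 0.982. It was -0.37 for Nr1i3 (CAR; 10.6 ± 1.45 and 8.21 ± 2.55 FPKM) with an adjusted p of 0.812. It was -0.29 for Ahr (8.81 ± 2.40 and 7.61 ± 3.94 FPKM) with an adjusted p of 0.844. Of the electron donors, Por differed by -0.053 (log2 fold change, adjusted p = 0.952) and Cyb5a by 0.30 (adjusted p = 0.812), and Alas1, the rate-limiting enzyme of haem synthesis, by -0.090 (adjusted p = 0.961). Of the further targets of PXR or CAR compared, Ces2a was at 80.5 ± 19.5 and 63.9 ± 10.5 FPKM (log2 fold change -0.31, limma adjusted p = 0.812). Abcc3 differed by 0.12 (adjusted p = 0.848) and Gadd45b by 0.087 (adjusted p = 0.923). Whether PXR activity differed between genotypes was not tested. Ahrr, Akr1b7 and Cux2 were too low to be compared.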

How the data were processed

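Livers of 10 mice, 5 ASK1f/f and 5 ASK1+hep by the labels, were compared, and replicates are separate mice. Per the study's methods, poly-A RNA was sequenced, reads were mapped with Hisat2 and quantified with FeatureCounts. The authors deposited FPKM per gene. The genome build and the strand setting are not given in the sources used here; 55 of the 58 members had the coordinates of GENCODE M21 (GRCm38), and coordinates are given on that build. The columns used hold FPKM for these 10 livers.

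In each library, FPKM times gene length came out as whole steps of 1 size (100.0% of values within 0.01 of whole), which gave the reads. The library size that the step implies differed from the reads on genes. In ASK1+hep replicate 3 it was 13777799 against 15480136 reads, and in ASK1f/f replicate 4 it was 15220274 against 14411830 reads. How the deposited scaling was set is not given in the sources used here. A gene entered the comparison with 10 or more reads (after scaling to the median library) in 5 or more livers and a total of 15 or more; genes were compared on log2 of the deposited FPKM + 1 with limma 3.58.1 (R 4.3.3; mean-variance trend, no covariate, Benjamini-Hochberg over 13306 genes). Exact permutation tests covered all 252 splits of the livers. Promoter windows came from RefSeq (GRCm38.p6), and alignments were made with Biopython 1.88.

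The members and lists were chosen with earlier results of these data known. Members named with values were, in each subfamily, the compared member with the highest mean, the 5 higher and 5 lower members with the lowest p, members without overlap, the 5 with the largest SD of log2(FPKM + 1), and a set by name (Cyp1a1, Cyp1a2, Cyp1b1, Cyp2a5, Cyp2b9, Cyp2b10, Cyp2b13, Cyp2c29, Cyp2e1, Cyp2f2, Cyp3a11, Cyp3a13, Cyp3a25 and Cyp3a44). Cyp2d10, Cyp2a12 and other members outside this rule were named after their values were seen. Alternatives were no filter on reads, a filter that asks for 10 reads in every liver, a pseudocount of 0.1, limma-voom (also with quality weights), scaling by all reads, the replicate block, livers of a single animal tag prefix (CC), and leaving out each liver; leaving out ASK1f/f replicates 2 and 5 together was added after seeing the data.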

Additional observations from a re-analysis of the deposited data

Results flagged for a closer look

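Of the 44 genotype groups examined for a sample far from the others, 1 was marked. Cyp3a11 was at 266 FPKM in ASK1f/f replicate 5, against 47.2 to 106 FPKM in the other 4 ASK1f/f livers, and this gap made up 0.731 of the group's whole range, above the limit of 0.71 for 5 samples. Chance marks about 1 in 20 such groups. The same liver had the highest Map3k5 of all 10 (19.8 FPKM, against its label) and the second highest Saa1 (904 FPKM). Its Fgf21 (3.21 FPKM) went with its label, since the ASK1+hep livers were at 7.40 to 30.1 FPKM. Whether these values are related was not tested.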

How the results depend on the processing

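No member had an adjusted p at or below 0.05 under any of the 19 alternatives, of which 10 left out a single liver, and the lowest adjusted p was 0.183 (Cyp3a11 with the replicate block). Over all genes, the count of adjusted calls, 0 in the main comparison, was 1 with quality weights in limma-voom and ranged from 0 to 1 when single livers were left out. Cyp2c38, Cyp2c39, Cyp3a11 and Cyp2j6 had an unadjusted p under 0.05 under all 19 alternatives. The count of higher members at that level was 5, and it was 3 without both ASK1f/f livers with high acute phase transcripts (4 to 5 without single livers). The count of lower members was 5, and it was 3 with the replicate block and 3 within tag prefix CC, and ranged from 3 to 7 without single livers, with 3 without ASK1f/f replicate 3, ASK1f/f replicate 4 or ASK1+hep replicate 2. The count of regulators, partners and further targets was 1. It was 4 with quality weights in limma-voom, 4 with scaling by all reads, 3 within tag prefix CC and 2 without both acute phase livers. It was 1 to 4 without single livers, the highest without ASK1+hep replicate 1 or 5. With the replicate block it was 2; the correlations of same-numbered livers were 0.0738, 0.174, 0.0212, 0.171 and 0.0932, and 4 of the 5 numbers correlated best with their own. Same-numbered livers have consecutive animal tags for 4 of the 5 numbers, but no source says what a shared number marks. With the block the unadjusted p of Cyp3a59 was 0.00667 and that of Cyp3a11 1.48e-05. Of 22 named members compared, 18 kept their sign throughout. Cyp1a2 was at 0.10 within tag prefix CC (-0.16 to 0.13 without single livers). Cyp2d9 was at -0.045 with quality weights, -0.068 with scaling by all reads and -0.078 without both acute phase livers (-0.033 to 0.085 without single livers). Cyp2g1 was at 0.058 with log2(FPKM + 0.1), 0.22 with limma-voom and 0.081 with quality weights (-0.26 to 0.10 without single livers). Cyp2r1 was at -0.015 without both acute phase livers. The cause of these changes was not tested. Members with few reads, such as Cyp2c39 and Cyp2s1, are limited by depth.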
